A study of Mus musculus with 12 samples.

Results

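The interferon-gamma signal core and the chemokines of the receptor CXCR3 were followed across murine neuroblastoma tumors by 8 genes, *Ifngr1*, *Ifngr2*, *Jak1*, *Jak2*, *Irf1*, *Socs1*, *Cxcl9* and *Cxcl10*. They were chosen by name for their place in the pathway, with earlier results of these data known, out of 19505 genes named on the array. Each was read by 1 probe set. The tissue was frozen neuroblastoma tumor, grown from inoculated cells in mice of the inbred strain A/J, and each of 12 tumors was hybridized to its own Affymetrix Mouse Clariom S array. The groups were 3 tumors each labelled with high intensity focused ultrasound (HIFU) for 24, 48 and 72 h, and 3 untreated control tumors. HIFU focuses sound waves to break up tissue, and the series names mechanical fractionation as its mode. The labels leave unsettled what the hours count, and they are taken here as time since HIFU. Neither age, sex nor HIFU settings are given, and nothing says that tumors of 1 group were from different mice. The p-values therefore set each difference against the spread between these samples, which need not be a spread between mice and may be partly technical.

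Interferon-gamma is a cytokine made mainly by T cells and natural killer (NK) cells. It binds a receptor of the chains IFNGR1 and IFNGR2, which carry the kinases JAK1 and JAK2. The signal acts through GAS elements in the DNA of early targets such as *Irf1*, whose product in turn binds interferon-stimulated response elements (ISRE). SOCS1 is induced by the same signal and inhibits the JAK kinases, closing a feedback loop. CXCL9 and CXCL10 are secreted chemokines that draw activated T cells and NK cells bearing CXCR3 into tissue, and in tumors they are made by macrophages, dendritic cells, stromal cells and tumor cells.

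The upstream sequences of the 4 genes that interferon-gamma induces are shown because their transcripts were all lower on every HIFU 24 h array than on every control array. Each is the stretch of 250 bases before the annotated transcription start in RefSeq, build GRCm38.p6, 5′ to 3′ on the strand of the gene. Capitals mark matches to 3 motifs searched on both strands, GAS as TTCNNNGAA, ISRE as GAAANNGAAA and an NF-kappaB site as GGGNNNTTCC. *Irf1* lies on the plus strand at chr11:53769764-53770013, *Socs1* on the minus strand at chr16:10785537-10785786, *Cxcl10* on the minus strand at chr5:92348890-92349139 and *Cxcl9* on the minus strand at chr5:92328080-92328329.
Irf1: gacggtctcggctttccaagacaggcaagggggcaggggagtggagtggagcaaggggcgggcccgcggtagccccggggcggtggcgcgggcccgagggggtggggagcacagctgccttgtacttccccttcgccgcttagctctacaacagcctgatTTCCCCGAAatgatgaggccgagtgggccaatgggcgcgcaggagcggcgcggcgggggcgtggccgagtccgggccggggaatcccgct
Socs1: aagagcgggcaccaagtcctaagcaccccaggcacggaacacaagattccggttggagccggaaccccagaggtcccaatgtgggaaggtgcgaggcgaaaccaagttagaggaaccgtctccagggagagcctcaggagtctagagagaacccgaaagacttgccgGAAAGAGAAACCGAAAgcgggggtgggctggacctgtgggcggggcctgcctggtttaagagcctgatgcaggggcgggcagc
Cxcl10: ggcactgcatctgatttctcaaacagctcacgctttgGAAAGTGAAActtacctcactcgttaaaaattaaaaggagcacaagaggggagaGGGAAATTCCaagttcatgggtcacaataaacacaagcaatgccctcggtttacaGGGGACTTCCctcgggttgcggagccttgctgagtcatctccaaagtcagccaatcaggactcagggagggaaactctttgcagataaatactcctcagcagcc
Cxcl9: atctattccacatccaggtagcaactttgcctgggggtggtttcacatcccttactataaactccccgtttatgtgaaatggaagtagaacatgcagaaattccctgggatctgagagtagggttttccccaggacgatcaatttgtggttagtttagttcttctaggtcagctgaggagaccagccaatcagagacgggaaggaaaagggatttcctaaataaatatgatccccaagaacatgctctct
The *Irf1* window held 1 GAS match, TTCCCCGAA, from 90 to 82 bases before the start. The *Socs1* window held 2 ISRE matches that overlap each other, GAAAGAGAAA and GAAACCGAAA, between 83 and 68 bases before the start. The *Cxcl10* window held 1 ISRE match, GAAAGTGAAA, from 213 to 204 bases before the start, and 2 NF-kappaB matches, GGGAAATTCC and GGGGACTTCC. In the *Cxcl9* window none of the 3 letter patterns occurred. Among all 32851 such windows, 7.02% held the GAS pattern, 2.98% the ISRE pattern and 4.65% the NF-kappaB pattern. Of the windows of the receptor and kinase genes, that of *Ifngr2* held 1 NF-kappaB match, and those of *Ifngr1*, *Jak1* and *Jak2* held no match to the 3 patterns. A second annotated start of *Irf1* had none either. A match or its absence describes the letters only, and no window was tested for binding here. An element that departs from these letters would be missed.

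Values are log2 signals per probe set as deposited, so 1 unit is a 2-fold step if the base is 2, which was read from the range of the values. Errors of group means are standard deviations (SD, n = 3) and errors of differences are standard errors (SE) of limma, which fitted a mean per group to all 12 arrays. The p-values were adjusted by Benjamini-Hochberg across the 22206 probe sets, and a gene passed at an adjusted p under 0.05. Signals of different probe sets are not compared with one another. Arrays give no read depth, and 3 arrays per group limit the precision. The median signal per array lay between 5.44 and 5.68 on the HIFU arrays and between 5.43 and 5.45 on the controls. At 72 h the mean of these medians was 0.14 above that of the controls. Sympathetic neuroblast markers were present on all 12 arrays. Dopamine beta-hydroxylase (*Dbh*) had signals from 11.99 to 16.46 and tyrosine hydroxylase (*Th*) from 10.46 to 13.76. HIFU 72 h replicate 2 stood farthest out on the first principal component (126 against -78.9 for control replicate 2), which held 43.6% of the variance. Of the controls, replicate 3 had the highest median of the skeletal muscle markers, 2.06 above the control mean.

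At 24 h after HIFU the 4 induced genes were lower than in untreated tumors, and the 4 genes of the receptor and its kinases were not. *Cxcl9* was 38.7-fold lower, *Cxcl10* 5.83-fold, *Irf1* 4.08-fold and *Socs1* 1.77-fold, each with the 3 HIFU 24 h arrays below the 3 control arrays. The files hold no detection calls, so how far the lower signals of *Cxcl9* at 24 h and of *Socs1* lie above background is unknown, and these folds are ratios of the signals as deposited. The lowest *Cxcl9* array, HIFU 24 h replicate 2, was above 32.4% of its probe sets. The other 4 genes had differences between 0.25 and 0.99 above control. By 72 h the means of *Cxcl9* and *Cxcl10* were back within 0.30 of the controls, while the 72 h arrays of *Socs1* and *Irf1* lay below every control array. None of the 8 passed the threshold over all probe sets (limma) at any time, where 0.054%, 0.0045% and 0.00901% of probe sets passed at 24, 48 and 72 h.

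**Figure D1:**
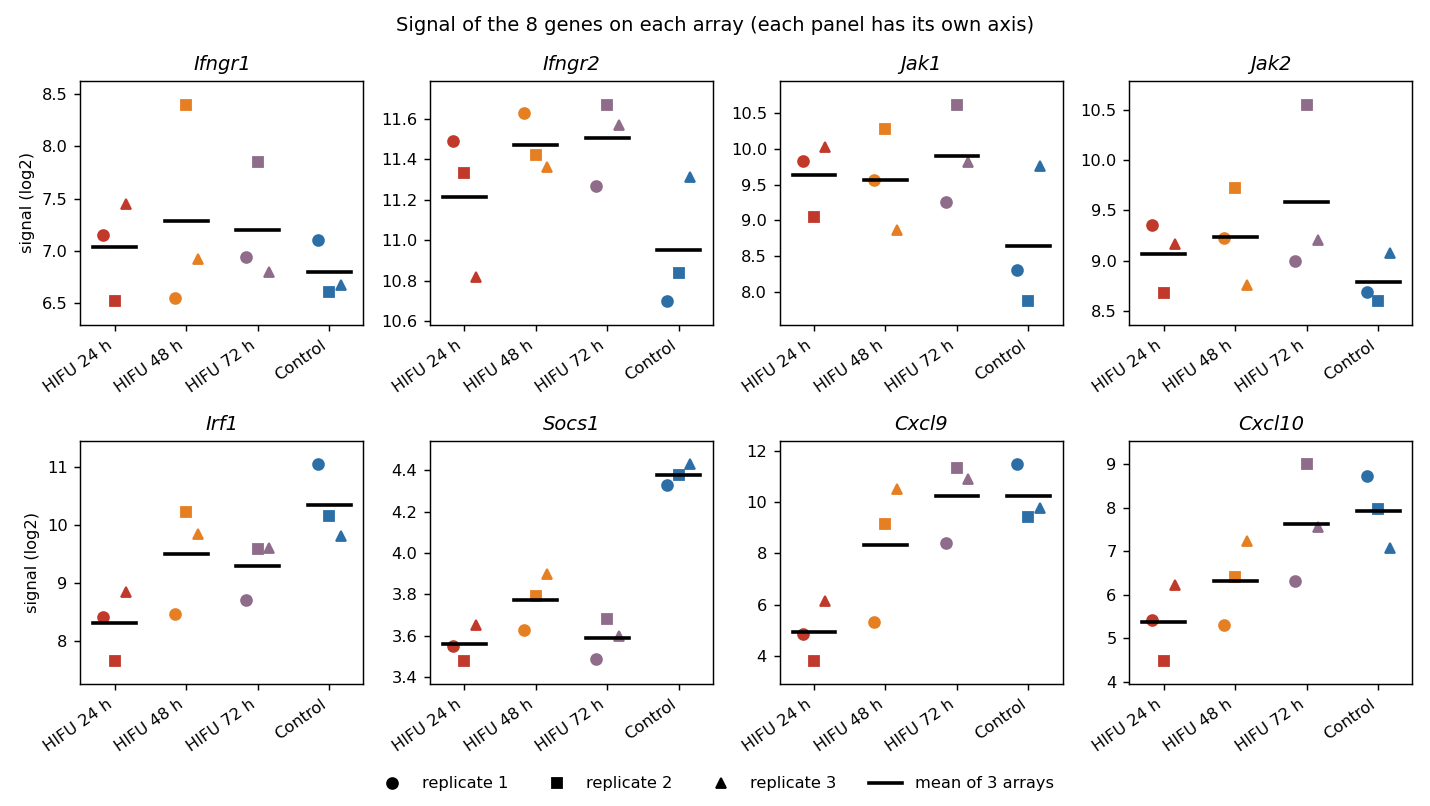
Signal (log2) of the 8 genes on each of the 12 arrays, by group, with 1 symbol per replicate and a bar for the mean of 3 arrays; each panel has its own axis. Irf1, Socs1, Cxcl9 and Cxcl10 sit lower on the HIFU 24 h arrays than on the control arrays, and Cxcl9 at 24 h lies between 3.83 and 6.13, against 9.40 to 11.47 in controls.

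*Cxcl9*, the chemokine also known as monokine induced by interferon-gamma, varied most of the 8, over 7.64 log2 units. Its signals were 4.86, 3.83 and 6.13 on the HIFU 24 h arrays, against 11.47, 9.40 and 9.77 on the control arrays. The groups lay apart, with more than 3 units between the highest HIFU 24 h array and the lowest control. The difference was -5.27 ± 1.21 SE (limma, adjusted p = 0.213), with a 95% confidence interval from -7.92 to -2.63. Among the differences of all 22206 probe sets at that time it ranked 5 from the lowest. At 48 h the arrays had 5.35, 9.14 and 10.50, a mean of 8.33 ± 2.67 (SD, n = 3) against 10.21 ± 1.10 in controls. HIFU 48 h replicate 1 was within the range of the HIFU 24 h arrays, replicate 2 was just below the controls and replicate 3 was among them. The difference of -1.88 ± 1.21 SE (adjusted p = 0.523) was -0.39 without replicate 1. At 72 h the arrays had 8.41, 11.33 and 10.91, and their mean of 10.22 ± 1.58 was 0.0033 ± 1.21 SE above that of the controls (adjusted p = 1). That interval, from -2.64 to 2.65, leaves room for differences of several fold either way. Ordered by mean, the groups ran from 24 h over 48 h to control and 72 h, and each neighbour in that order overlapped the next.

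*Cxcl10*, whose product is also called IP-10 and is induced by type I interferons as well, followed a similar course with a smaller span. Its signals were 5.42, 4.49 and 6.23 at 24 h, against 8.73, 7.97 and 7.07 in controls, with no overlap. The difference was -2.54 ± 0.72 SE (limma, adjusted p = 0.308), rank 86 from the lowest. At 48 h the signals were 5.30, 6.41 and 7.24, and at 72 h they were 6.31, 9.0 and 7.56. One 48 h array and 2 of the 72 h arrays were at or above the lowest control, and HIFU 72 h replicate 2 was above the highest. The differences from control were -1.61 ± 0.72 SE at 48 h (adjusted p = 0.371) and -0.30 ± 0.72 SE at 72 h (adjusted p = 0.931). The 72 h difference was 0.36 without HIFU 72 h replicate 1, 0.10 without control replicate 1 and -0.99 without HIFU 72 h replicate 2. The group means ran 5.38, 6.32 and 7.62 at 24, 48 and 72 h, against 7.92 in controls, and neighbours in that order overlapped.

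*Irf1* encodes the transcription factor that carries much of the interferon-gamma response. Its signals were 8.41, 7.66 and 8.84 at 24 h, against 11.04, 10.15 and 9.81 in controls, so the groups did not overlap. The difference was -2.03 ± 0.50 SE (limma, adjusted p = 0.254). At 48 h the 3 arrays had 8.46, 10.21 and 9.83, of which the last 2 were within the range of the controls. The difference of -0.83 ± 0.50 SE (adjusted p = 0.490) was -0.31 without HIFU 48 h replicate 1. At 72 h they had 8.70, 9.58 and 9.59, again all below the lowest control, and differed by -1.04 ± 0.50 SE (adjusted p = 0.463). The 24 h mean was the lowest of the 4 groups, and the 72 h and 48 h groups overlapped it and each other.

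*Socs1*, the feedback inhibitor of the JAK kinases, had a low signal, above 22.8% to 40.4% of the probe sets of an array, and a narrow spread. Its signals were 3.55, 3.48 and 3.65 at 24 h, 3.63, 3.79 and 3.90 at 48 h and 3.49, 3.68 and 3.60 at 72 h, against 4.33, 4.38 and 4.43 in controls. It was the 1 member that lay below all 3 controls on all 9 HIFU arrays, which held for 1.65% of all probe sets. The differences were -0.82 at 24 h (adjusted p = 0.204), -0.61 at 48 h (adjusted p = 0.228) and -0.79 at 72 h (adjusted p = 0.255), each ± 0.18 SE (limma). The 3 HIFU groups did not stand in the order of time, and the 24 h and 72 h arrays overlapped. Leaving out any 1 array kept the 24 h difference between -0.87 and -0.78.

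The receptor chains lay at or slightly above control in their means. *Ifngr1*, the ligand-binding chain, had 7.15, 6.52 and 7.45 at 24 h, 6.55, 8.40 and 6.92 at 48 h and 6.94, 7.85 and 6.80 at 72 h, against 7.10, 6.61 and 6.67 in controls. All 3 HIFU groups overlapped the controls, and the differences were 0.25, 0.50 and 0.40 (each ± 0.46 SE; adjusted p = 0.889, 0.668 and 0.815, limma). The 48 h difference was -0.06 without HIFU 48 h replicate 2. *Ifngr2*, the signaling chain that recruits JAK2, had 11.49, 11.33 and 10.82 at 24 h, 11.63, 11.42 and 11.36 at 48 h and 11.27, 11.67 and 11.57 at 72 h, against 10.70, 10.84 and 11.31 in controls. Its 48 h arrays were all above the controls. The differences were 0.26, 0.52 and 0.55 (each ± 0.25 SE; adjusted p = 0.758, 0.394 and 0.437, limma), and its span over all arrays was 0.97 log2 units.

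The means of the kinases were also above control. *Jak1*, the kinase carried by IFNGR1 and by many other cytokine receptors, had 9.83, 9.05 and 10.02 at 24 h, 9.56, 10.28 and 8.86 at 48 h and 9.26, 10.62 and 9.82 at 72 h, against 8.30, 7.87 and 9.76 in controls. Control replicate 3 lay within the HIFU groups, and the other 2 controls lay below all 9 HIFU arrays. The differences were 0.99, 0.92 and 1.26 (each ± 0.54 SE; adjusted p = 0.585, 0.477 and 0.415, limma). Without control replicate 3 they were 1.55, 1.48 and 1.81, and without control replicate 2 they were 0.60, 0.54 and 0.87. *Jak2*, the kinase carried by IFNGR2, had 9.35, 8.68 and 9.17 at 24 h, 9.23, 9.72 and 8.76 at 48 h and 9.0, 10.55 and 9.21 at 72 h, against 8.69, 8.60 and 9.08 in controls. All groups overlapped the controls, and HIFU 72 h replicate 2 was the highest array for both kinases. The differences of *Jak2* were 0.28, 0.45 and 0.80 (each ± 0.40 SE; adjusted p = 0.851, 0.655 and 0.486, limma), and the last was 0.31 without that array.

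**Figure D2:**
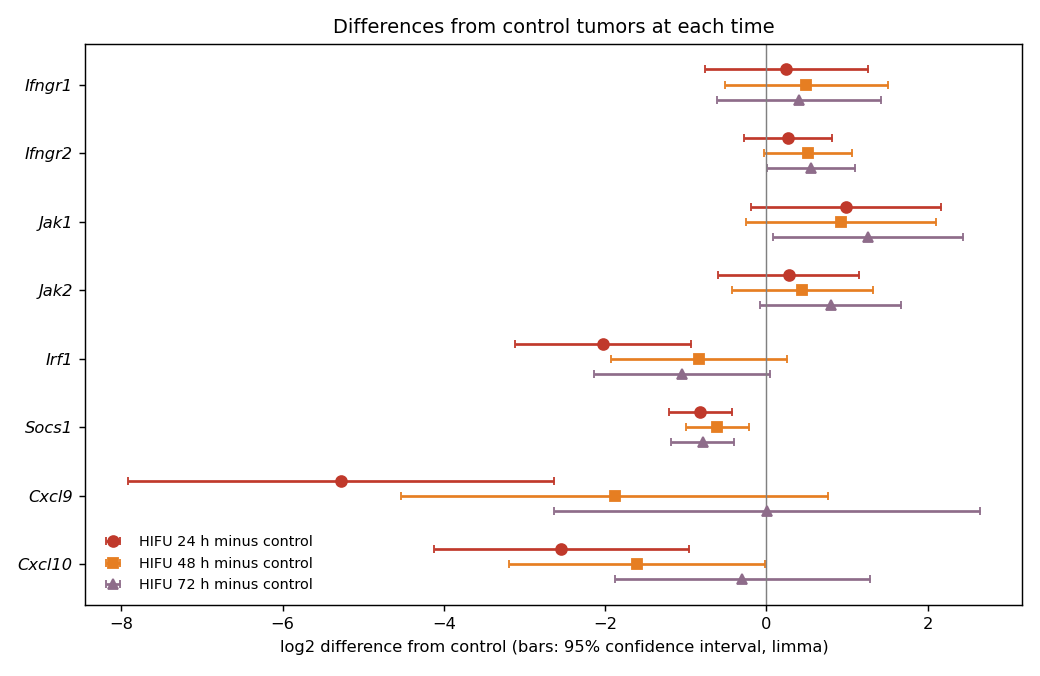
Log2 difference of each HIFU group from the control tumors for the 8 genes, with 95% confidence intervals from limma (n = 3 arrays per group). The intervals of Irf1, Socs1, Cxcl9 and Cxcl10 lie below 0 at 24 h, those of Socs1 at all 3 times, and those of Cxcl9 and Cxcl10 at 72 h cover 0.

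Counted together, 4 of the 8 genes were below and 4 above control at 24 h, with a median difference of -0.29, where the median over all probe sets was 0.00. The arrays of 4 of the 8 did not overlap the controls and were lower, against 7.68% of all probe sets, and 0 were higher, against 6.84%. At 48 h 1 member was lower without overlap, against 11.7% of all probe sets, and 1 was higher, against 10.3%. At 72 h 2 were lower, against 10.1%, and 0 higher, against 8.99%. At an unadjusted p under 0.05 limma had 4 members at 24 h, 2 at 48 h and 3 at 72 h, where 9.84%, 13.3% and 11.2% of all probe sets reached it. Of these, 4 at 24 h, 2 at 48 h and 1 at 72 h were lower, against 5.86%, 8.01% and 5.39% of all probe sets that were lower. Of the 3 at 72 h, *Socs1* was lower, and *Ifngr2* and *Jak1* were higher, where 1300 of the 22206 probe sets were higher. The F test over the 3 times against control called 0 members, where 0.00901% of all probe sets passed. At an unadjusted p under 0.05 it had 4, *Socs1*, *Cxcl9*, *Irf1* and *Cxcl10* (adjusted p = 0.349, 0.357, 0.432 and 0.444), where 9.34% of all probe sets reached it. These counts were made on genes of 1 pathway in the same tumors, so they are not independent. The genes were also chosen with earlier results of these data known. Setting the counts against the shares of all probe sets is therefore a description and no test.

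The 72 h tumors were also set directly against the 24 h tumors, where both chemokines were higher. *Cxcl9* was higher at 72 h than at 24 h by 5.28 ± 1.21 SE (limma, adjusted p = 0.528) and *Cxcl10* by 2.24 ± 0.72 SE (adjusted p = 0.817), both without overlap of the arrays. Among all probe sets *Cxcl9* ranked 15 from the highest difference in that comparison and *Cxcl10* ranked 139. *Irf1* was higher by 0.99 ± 0.50 SE with overlapping arrays (adjusted p = 0.889), and *Socs1* by 0.03 ± 0.18 SE (adjusted p = 0.989), with an interval from -0.36 to 0.42. The receptor and kinase genes differed by 0.16 to 0.52. In this comparison 0 of the 8 passed and 0% of all probe sets did (limma). At an unadjusted p under 0.05 there were 2 members, both higher, and 0 lower, where 5.57% of all probe sets reached it and 2.35% were lower. At that p, 715 of the 22206 probe sets were higher. Without overlap 2 members were higher at 72 h, against 4.53%, and 0 were lower, against 4.9%. The contrasts with control share the 3 control arrays, and this one shares the 24 h and 72 h arrays with them.

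Other genes of the pathway were taken from lists that were made with earlier results of these data known. Of the listed genes, 41 were measured, and 0 passed the threshold at any time. At an unadjusted p under 0.05, limma had 15 of them lower and 0 higher at 24 h. It had 13 lower and 1 higher at 48 h and 3 lower and 2 higher at 72 h. Of all probe sets, 5.86%, 8.01% and 5.39% were lower, and 884, 1177 and 1300 of the 22206 were higher. Other interferon-gamma targets were lower at 24 h for 14 of 15 genes, with a median of -2.68, and 11 had arrays without overlap. The median was -1.77 at 48 h, with 6 lower without overlap, and -0.75 at 72 h, with 2. Of all probe sets, 7.68%, 11.7% and 10.1% were lower without overlap at 24, 48 and 72 h, so 2 of 15 at 72 h is near that share. *Igtp*, an interferon-induced GTPase that acts on the vacuoles of intracellular pathogens, had 4.88, 4.29 and 5.62 at 24 h, against 10.35, 8.70 and 8.23 in controls. It differed by -4.16 ± 0.76 SE (limma, adjusted p = 0.124). *Psmb8*, an immunoproteasome subunit, had 7.70, 7.16 and 7.55 at 24 h, against 11.06, 9.84 and 9.54 in controls, and differed by -2.68 ± 0.44 SE (limma, adjusted p = 0.0931). *Nos2*, the inducible nitric oxide synthase, was the gene above control, by 1.19. It was named after its values were seen. Of the 10 genes of this list with a promoter window, 5 held an ISRE match and 3 a GAS match, where 3.46% and 8.13% of all 27025 genes with a window did. The motifs, like the list, were chosen with earlier results known, so the shares in this paragraph describe and do not test.

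**Figure D3:**
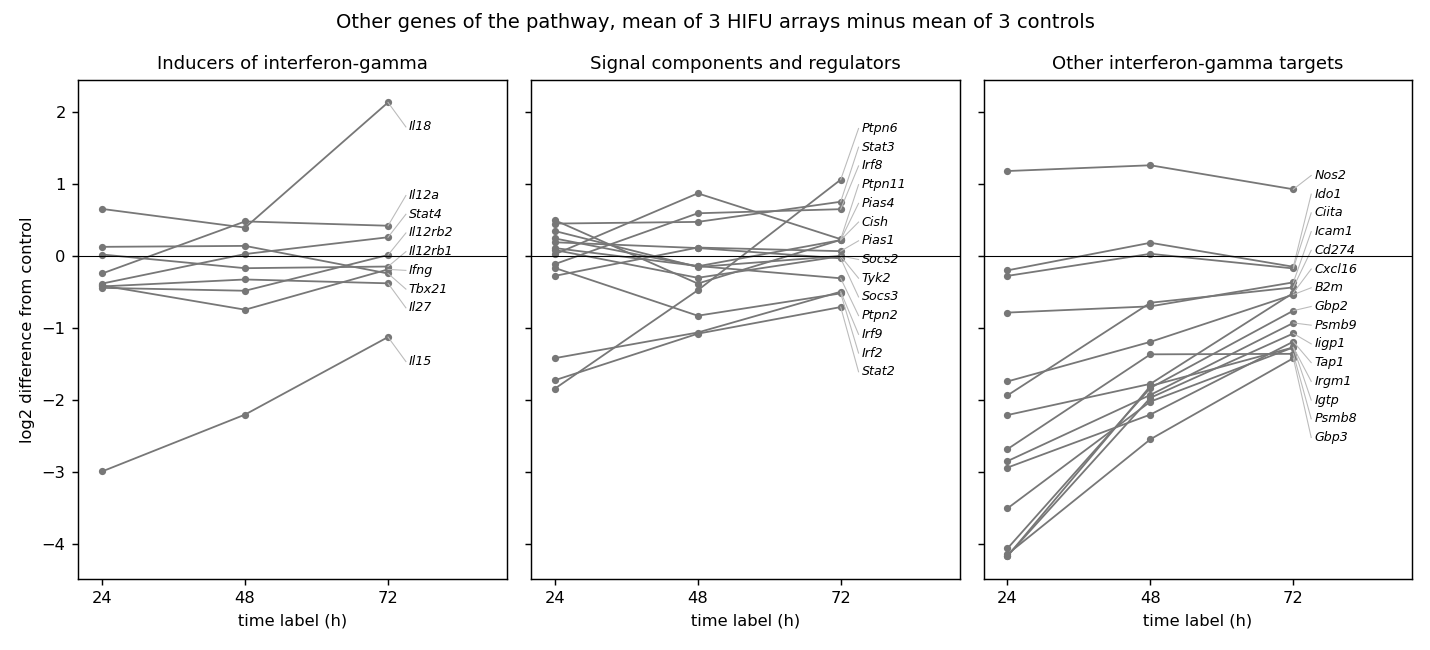
Log2 difference from control at 24, 48 and 72 h for the other genes of the pathway, each point the mean of 3 HIFU arrays minus the mean of 3 control arrays and each line 1 gene. Of the targets, 14 of 15 lie below 0 at 24 h, and the list median is -2.68, -1.77 and -0.75 at the 3 times, while signal components spread around 0.

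The cytokine and its inducers were measured as well. *Ifng* had 4.54, 4.40 and 4.36 at 24 h, 3.43, 4.47 and 4.39 at 48 h and 4.47, 4.58 and 4.92 at 72 h, against 5.74, 4.45 and 4.32 in controls. Except on control replicate 1, its signals lay below 5.43, the lowest array median. Control replicate 1, which was the highest array for *Ifng*, was also the highest of the controls for *Cxcl9*, *Cxcl10* and *Irf1*. The differences of *Ifng* were -0.40, -0.74 and -0.18 (each ± 0.38 SE; adjusted p = 0.758, 0.427 and 0.918, limma), and all groups overlapped. *Il15*, a growth factor of NK cells and memory T cells, had 4.94, 5.04 and 4.60 at 24 h, against 9.54, 8.21 and 5.79 in controls, and differed by -2.99 ± 0.88 SE (limma, adjusted p = 0.335). *Il18*, which drives interferon-gamma production together with interleukin 12, had 5.42, 8.13 and 5.96 at 72 h, against 4.58, 4.65 and 3.86 in controls, and differed by 2.14 ± 0.65 SE (limma, adjusted p = 0.309). The 9 measured genes of this list had medians of -0.38, -0.16 and -0.14 at 24, 48 and 72 h.

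Signal components and regulators had a median of 0.06 at 24 h, with 6 of 14 genes below control and 3 lower without overlap. *Irf9*, a DNA-binding factor of type I interferon signaling, had 5.73, 6.09 and 6.22 at 24 h, against 8.02, 7.49 and 6.77 in controls, and differed by -1.41 ± 0.37 SE (limma, adjusted p = 0.274). *Irf2*, an antagonist of IRF1 at the same elements, had 9.10, 9.77 and 9.69 at 48 h, against 10.47, 10.20 and 10.36 in controls, and differed by -0.82 ± 0.23 SE (limma, adjusted p = 0.224). At 24 h its difference was -0.16 ± 0.23 SE with overlapping arrays.

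Of the CXCR3 axis, the receptor gene *Cxcr3*, found on activated T cells and NK cells, stayed within a narrow range. It had 4.67, 4.74 and 5.07 at 24 h, 5.15, 5.23 and 4.70 at 48 h and 5.25, 5.36 and 5.17 at 72 h, against 5.18, 5.13 and 4.86 in controls. All of these lay below 5.43, the lowest array median, so how far they lie above background is unknown. The differences were -0.23, -0.03 and 0.20 (each ± 0.22 SE; adjusted p = 0.758, 0.965 and 0.797, limma). *Cxcl11*, the other CXCR3 ligand gene, which the RefSeq table of the C57BL/6J genome lists as a transcribed pseudogene, had low signals of 2.63, 2.47 and 3.03 at 24 h, against 3.95, 3.19 and 3.68 in controls. Its differences were -0.90, -0.90 and -0.63 at 24, 48 and 72 h (each ± 0.24 SE; adjusted p = 0.277, 0.218 and 0.365, limma), and the arrays of each time lay below the controls. *Dpp4*, a peptidase that trims the amino end of these chemokines, differed by 0.65, 0.77 and 0.57 (each ± 0.37 SE; adjusted p = 0.596, 0.400 and 0.604, limma).

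Transcripts that mark cell types also differed in level between the groups, although none of the listed markers passed the threshold (limma). In bulk tissue fewer cells of a type and less RNA per cell cannot be told apart. T cell and NK cell markers were below control at 24 h for 12 of 14 genes, with a list median of -0.73. At 48 h and 72 h they were also below control for 12 of 14 genes, with medians of -0.49 and -0.47. Their summed signal (log2) lay between 7.52 and 7.91 at 24 h, against 7.98 and 8.79 in controls. At 72 h it lay between 7.77 and 8.75. *Cd3e*, a chain of the T cell receptor complex, had 4.55, 4.26 and 4.87 at 24 h, against 6.14, 5.04 and 5.74 in controls. General leukocyte markers had a median of -0.26 at 24 h and 1.44 at 72 h. Their summed signal lay between 11.24 and 13.92 at 24 h and between 13.71 and 17.23 at 72 h, against 12.42 and 14.06 in controls. *Ptprc*, the leukocyte antigen CD45, had 10.12, 7.42 and 9.82 at 24 h and 10.22, 13.12 and 10.25 at 72 h, against 11.89, 9.83 and 10.29 in controls. HIFU 24 h replicate 2, the lowest array for *Ptprc*, was also the lowest for *Cxcl9*, *Cxcl10* and *Irf1*, and HIFU 72 h replicate 2, the highest for *Ptprc*, was the highest 72 h array for both chemokines. In the controls replicate 1 was highest for all 3 genes, but the highest arrays did not match in the 24 h and 48 h groups. At 24 h *Ptprc* was highest on replicate 1 and both chemokines on replicate 3, and at 48 h *Ptprc* was highest on replicate 2 (11.8, against 9.59 on replicate 3) and both chemokines on replicate 3.

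Markers of monocytes and macrophages, a source of CXCL9, had a median of -0.35 at 24 h, with 7 of 13 below control, and 2.26 at 72 h, with 12 of 13 above. Their summed signal lay between 12.93 and 15.99 at 24 h and between 15.28 and 18.88 at 72 h, against 12.37 and 13.52 in controls. Within the 24 h group, replicates 1, 2 and 3 had macrophage medians of 0.78, -1.64 and 0.62 relative to the control mean, and *Cxcl9* signals of 4.86, 3.83 and 6.13. The array with the lowest macrophage median had the lowest *Cxcl9*, and the 2 arrays with medians above the control mean were also below every control for *Cxcl9*. The list of dendritic cells had a median of -0.02 at 24 h, with 5 of 9 below control. Its marker *Itgax*, which encodes CD11c, had 3.51, 3.71 and 3.41 at 24 h, against 5.5, 4.72 and 4.97 in controls, and differed by -1.52 ± 0.24 SE (limma, adjusted p = 0.0853). That was the lowest difference of the list, in which 4 of 9 genes were above control. Skeletal muscle markers were above control for 16 of 16 genes at 24 h, with a median of 3.91, and their summed signal lay between 20.04 and 21.52 against 16.55 and 19.61 in controls. Neutrophil markers had medians of 1.82, 3.74 and 6.72 at 24, 48 and 72 h, with 9 of 9 above control at each. Fibroblast and endothelial markers had medians of 2.93 and 1.06 at 24 h, and the sympathetic neuroblast list had 0.52. B cell markers had 0.03. The part of these shifts in the values of the 8 genes was not tested.

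**Figure D4:**
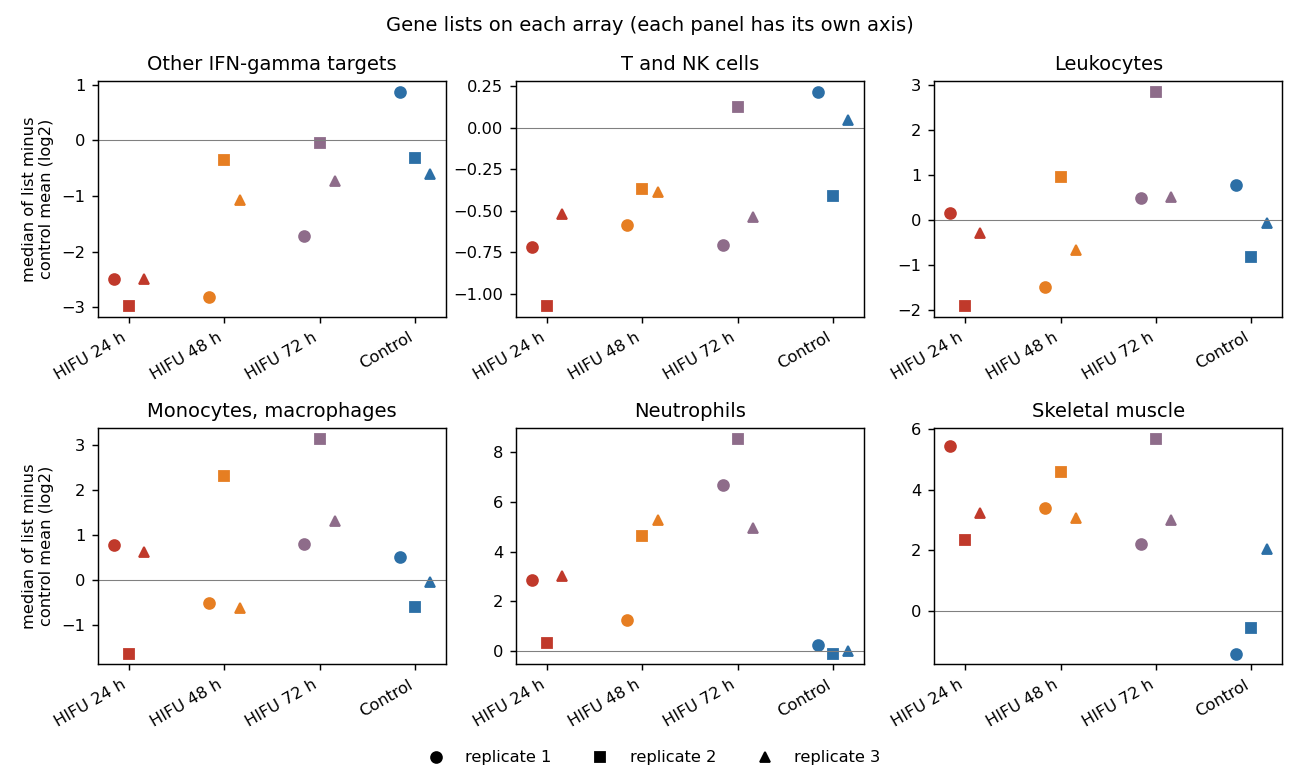
Median over the genes of 6 lists on each array, as the log2 difference from the control mean, by group; symbols are replicates and each panel has its own axis. The other interferon-gamma targets lie between -2.99 and -2.49 on the HIFU 24 h arrays, against -0.61 to 0.88 on the controls. The skeletal muscle list lies at 2.21 or higher on all 9 HIFU arrays, against -1.405 to 2.055 on the controls.

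The genes most like each variable member were sought over the 12 arrays, by the mean absolute difference of the log2 signals after each gene was centred on its own mean. For *Cxcl9*, whose own mean deviation was 2.26, they were *Tgtp2* (0.69), *Gbp4* (0.84) and *Igtp* (0.88), all interferon-induced GTPases. For *Irf1*, with a mean deviation of 0.79, they were the nonclassical class I gene *H2-T10* (0.24), *Psmb8* (0.25) and the ubiquitin ligase gene *Dtx3l* (0.29). For *Cxcl10*, with 1.12, they were *Ifitm3* (0.37), which restricts virus entry, *Rtp4* (0.38), a chaperone of receptors, and *Ifit2* (0.39), which acts against viral RNA. For *Jak1*, with 0.64, they were *Mfn2* (0.25), needed for mitochondrial fusion, the protocadherin gene *Pcdh7* (0.25) and *Frmd6* (0.26). No gene was among the 3 nearest of more than 1 of these members, out of 18454 candidates. That lack of overlap therefore does not set *Jak1* apart from the induced members. These are descriptions of the same 12 tumors, which share the group differences above.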

How the data were processed

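RNA of 12 tumors was measured on Affymetrix Mouse Clariom S arrays. The values deposited by the authors are log2 signals for 22206 probe sets, from 1.75 to 19.93. The base was read from their range, and Transcriptome Analysis Console 4.0 is named per the submitters' processing notes. How they were summarized, corrected for background and filtered, and on which build, is not given in the sources used here. They were used without rescaling. Normalization across arrays makes each difference mainly relative to the other genes.

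Probe sets were named through the platform annotation and, by gene number, a RefSeq table of GRCm38.p6: 19572 had 1 symbol, 0 several and 2634 none. Where a gene had several probe sets, the one with the highest mean was taken. Groups came from the sample titles. The tests were two-sided and used lmFit and eBayes of limma 3.58.1 (R 4.3.3), with a prior of 3.37 degrees of freedom, with Benjamini-Hochberg adjustment over all probe sets and a threshold of 0.05. The fit was tested on simulated data. Figures were drawn in Python 3.11.15.

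The members, the lists and the motifs were chosen with earlier results of these data known. Named besides the 8 members are *Ifng*, *Cxcr3* and *Cxcl11*, the 2 genes of each pathway list with the smallest p of the F test, and the 3 genes most similar to each member that spanned over 2 log2 units, without predicted genes. Single marker genes, named as markers of their lists, were picked with values in view. Alternatives were a replicate block, leaving out the lowest 25% of probe sets, median centring, quantile normalization, array weights, a robust fit with an intensity trend, a fit of only the groups compared, averaging the probe sets that share a gene, only probe sets with a symbol, and leaving out each array. Since the values were already logarithms, no pseudocount was varied.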

Additional observations from a re-analysis of the deposited data

How the results depend on the processing

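The count of members past the threshold was 0 in each comparison and under each alternative run except array weights (limma); the F test, which needs all groups, was not run on only the groups compared. With array weights it was 4 at 24 h against control, 3 at 72 h against control and 3 in the F test. The share of all probe sets that passed with array weights is not given here, so these counts cannot be set against it. At 24 h the members past the threshold were *Irf1* (-1.96, adjusted p = 0.0283), *Socs1* (-0.82, adjusted p = 0.0207), *Cxcl9* (-4.97, adjusted p = 0.0285) and *Cxcl10* (-2.64, adjusted p = 0.0271). At 72 h they were *Socs1* (-0.81, adjusted p = 0.00833), *Ifngr2* (0.61, adjusted p = 0.0495) and *Jak1* (1.51, adjusted p = 0.0301). Over all alternatives the adjusted p at 24 h ran from 0.0285 to 0.927 for *Cxcl9* and from 0.0207 to 0.770 for *Socs1*. The weights ran from 0.31 for HIFU 72 h replicate 2 to 4.19 for control replicate 2; the cause of the added calls was not tested. Of 672 single-gene values, 648 kept direction and side of the threshold, 7 passed it and 17 turned direction. *Cxcl9* at 72 h against control turned to -0.14 with median centring, -0.55 and -0.34 without HIFU 72 h replicate 2 or 3, and -0.40 and -0.22 without control replicate 2 or 3. Leaving out 1 array at a time, it ran from -0.55 to 0.91. *Cxcl10* at 72 h turned to 0.36 without HIFU 72 h replicate 1 and 0.10 without control replicate 1 (leave-one-out range -0.99 to 0.36), and *Ifngr1* at 48 h to -0.06 without HIFU 48 h replicate 2 (range -0.06 to 0.87). For 72 h against 24 h, *Ifngr1* turned to -0.16 with array weights, and to -0.10 and -0.17 without HIFU 24 h or 72 h replicate 2. *Jak1* turned to -0.01, -0.02 and -0.09 under the same 3 settings (leave-one-out range -0.09 to 0.59). *Socs1* turned to -0.05 with median centring, and to -0.01 and -0.02 without HIFU 24 h or 72 h replicate 2 (range -0.02 to 0.08). The 24 h differences of *Irf1*, *Socs1*, *Cxcl9* and *Cxcl10* stayed below 0 in all 21 alternatives, for *Cxcl9* between -5.87 and -4.64. Deviations of same-numbered arrays from their group means correlated between -0.61 and 0.62, and 4 of 18 pairs exceeded 0.1. Those of arrays with different numbers correlated between -0.58 and 0.60, and 18 of 36 pairs exceeded 0.1. Deviations within a group of 3 depend on one another, so these values cannot decide whether the replicate numbers pair the tumors. A replicate block left the count of members at 0 in each comparison. With 3 arrays per group and no detection calls, low signals cannot be set against a background. Examples are *Socs1*, *Cxcl11*, *Cxcr3*, *Ifng*, *Ciita*, *Ido1* and, at 24 h, *Cxcl9*.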

Other observations

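*Ptpn6*, which encodes the phosphatase SHP-1 of blood cells and restrains cytokine signaling, had the widest course of the signal components. Its difference from control was -1.84 ± 1.16 SE at 24 h, -0.47 ± 1.16 SE at 48 h and 1.07 ± 1.16 SE at 72 h (limma, adjusted p = 0.633, 0.893 and 0.801). Between 72 h and 24 h it differed by 2.90 ± 1.16 SE (adjusted p = 0.845), with arrays that did not overlap. *Stat2*, a transcription factor of type I interferon signaling, differed by -1.72 ± 0.45 SE at 24 h, -1.07 ± 0.45 SE at 48 h and -0.70 ± 0.45 SE at 72 h (limma, adjusted p = 0.282, 0.346 and 0.602). *Cd274*, the gene of the checkpoint ligand PD-L1, differed by -1.93 at 24 h and -0.43 at 72 h. *Ciita* and *Ido1*, targets known for antigen presentation by class II and for tryptophan breakdown, were near control at 24 h, with -0.27 and -0.19. Their control means were already low, 4.71 and 2.87. Without detection calls it is unknown whether such signals could fall further. These 5 genes were chosen after their values were seen.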
